A study of Mus musculus with 4 samples.

Results

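Described here are 9 genes of tRNA methylation (Trmt2a, Trmt1, Trmt2b, Trmt5, Trmt6, Trmt10c, Trmt61a, Trmt112 and Nsun2) in splenic follicular B (FOB) cells with and without the RNA-binding protein hnRNP F. They were chosen by gene symbol, and they are 9 of the 55401 genes in the count table and 9 of the 14123 genes that passed the filter on low counts, so none was lost to the filter. Trmt2a was selected on 5 listed splicing events and on higher counts in the knockout, so both of these values are given for it as a description, with no test. The other 8 genes were taken with it by family and function, with earlier results of these data known.

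The FOB cells came from C57BL/6 mice of 7 weeks and were sorted as B220+CD93-CD23highCD21low. The 2 control libraries, labelled WT, came from Hnrnpf fl/fl mice without Cre, so the controls carried the floxed alleles too. The 2 knockout libraries, labelled HFKO and called Hnrnpf bKO here, came from Hnrnpf fl/fl mice with a heterozygous Cre allele that is expressed in B cells and removes exon 4 of Hnrnpf. The WT mice do not carry this allele, so its presence and the loss of hnRNP F cannot be told apart. Neither the sources nor the labels say whether cells of several mice were pooled. Nothing says that libraries of a group came from separate animals, so p-values measure the spread between these libraries, which may be technical.

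Transfer RNAs are modified after transcription, and methyl groups placed on their bases affect folding, stability and decoding. Trmt2a methylates uridine in the T loop of cytosolic tRNA, which gives 5-methyluridine. Trmt1 adds a pair of methyl groups to a guanosine between the D stem and the anticodon stem. Some of these enzymes act in the cytosol or nucleus, others in mitochondria, and several need a partner subunit. hnRNP F is a splicing regulator that binds runs of guanosines, called G-tracts, in RNA.

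Library totals lay between 15698567 and 18908963 counts, with 19869 to 20317 genes detected per library. Hnrnpf had counts of 5780 and 6634 in the controls and of 1167 and 1194 in the knockout, a log2 fold change of −2.32 (SE 0.06, edgeR adjusted p = 1.05e-10). All 7 B cell markers were detected in every library, with summed levels of 15700 and 15880 CPM (counts scaled to library size) in WT and 15390 and 15680 in the knockout. The 5 T cell markers summed to 20.7 and 31.2 CPM in WT and to 16.8 and 25.8 in Hnrnpf bKO. The 5 myeloid markers summed to 11.3 and 17.6 CPM in WT and to 21.7 and 32.4 in Hnrnpf bKO, and S100a8 and S100a9 rose among them. Cd93, the transitional B cell marker that the sort selects against, rose from 8.44 and 11.7 CPM in WT to 16.6 and 19.6 in Hnrnpf bKO. Of the 3 follicular sort markers, Fcer2a (CD23) was higher in Hnrnpf bKO, with a log2 fold change of 0.22 (edgeR adjusted p = 0.018). Cr2 (CD21) was lower, at −0.47 (edgeR adjusted p = 0.0014), and Ptprc did not pass the test (−0.12, edgeR adjusted p = 0.136). None of the markers was at 0 in all libraries. Fewer cells of a type and less RNA per cell cannot be told apart in these bulk libraries, and the part of the myeloid and transitional cells in the results below was not tested.

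Trmt2a (ENSMUSG00000022721) lies on the plus strand of chromosome 16 of GRCm38 at chr16:18248679-18254772. GENCODE M21 gives it 14 transcripts, of which 7 are protein coding and 7 are retained-intron transcripts. The reference transcript chosen here, Trmt2a-203, has 12 exons, 2367 bases and a coding sequence of 613 codons. Together the annotated exons cover 5326 of the 6094 bases of the gene (87.4%). Part of this cover is the last exon of the protein-coding Trmt2a-207, which runs past the end of Trmt2a-203. Introns 2, 3 and 7 of Trmt2a-203 lie whole in no annotated exon. The other 8 introns are exonic in at least 1 retained-intron transcript. A read from such an intron was thus counted for the gene like a read from a spliced exon. The same share was 46.7% for Trmt1 and 5.62% for Nsun2.

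**Figure D1:**
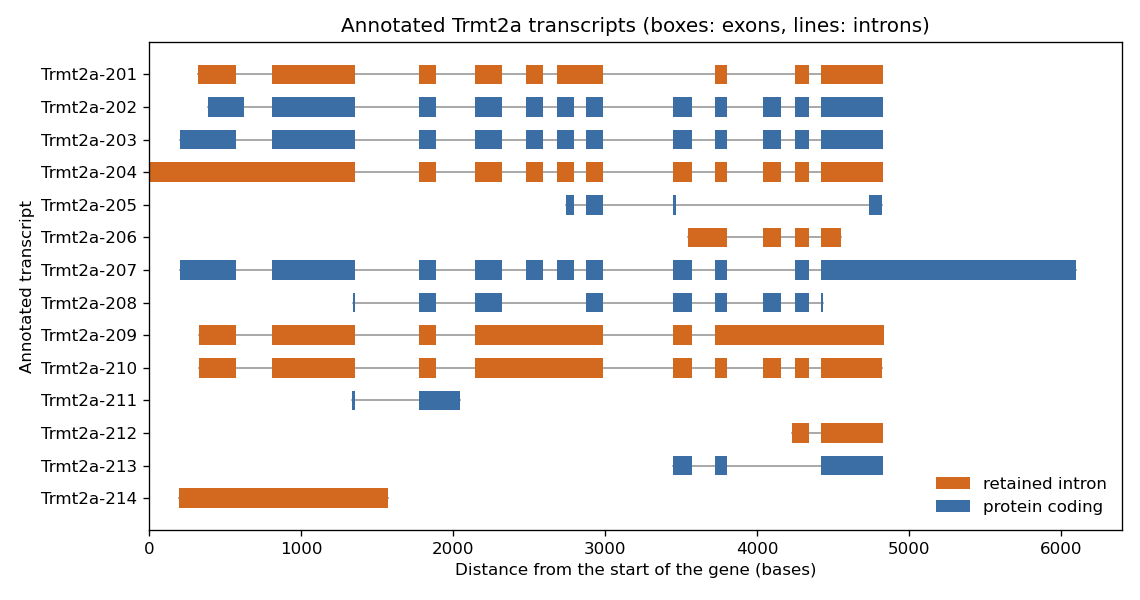
Annotated transcripts of Trmt2a against the distance in bases from the start of the gene, with boxes for exons, lines for introns, blue for the 7 protein-coding and orange for the 7 retained-intron transcripts. The exons of 1 transcript cover introns of another at several places along the gene.

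Intron 10 of Trmt2a-203 (chr16:18252836-18252923, plus strand) is 88 bases long and exonic in 1 annotated retained-intron transcript. It is shown for its single G-tract, a run of 6 G that starts at base 18, counted from 1 at the 5′ end of the intron. The tract is in capitals.
Trmt2a-203 intron 10: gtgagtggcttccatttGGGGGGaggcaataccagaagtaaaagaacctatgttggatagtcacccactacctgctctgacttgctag

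The deposited splicing table gives no coordinates, so none of the listed events can be placed on an exon or intron. Exons 5 and 6 are skipped together in 1 annotated transcript, Trmt2a-208, and are 115 and 116 bases long.

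Intron 1 (chr16:18249252-18249485) held the most G-tracts of the Trmt2a introns whose sequence was read, 10 in 234 bases, and is shown for that reason, again with every run of 3 or more G in capitals. Intron 4 followed with 9 in 154 bases.
Trmt2a-203 intron 1: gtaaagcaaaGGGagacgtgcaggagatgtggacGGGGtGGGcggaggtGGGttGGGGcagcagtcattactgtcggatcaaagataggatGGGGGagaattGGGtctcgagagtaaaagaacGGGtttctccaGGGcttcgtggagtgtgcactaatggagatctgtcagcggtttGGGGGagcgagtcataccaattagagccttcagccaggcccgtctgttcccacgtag

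Only introns of at most 500 bases that are exonic in another transcript could be read, which left 8 of the 11 introns of Trmt2a. These 8 held 28 runs of GGG or more on the sense strand in 1111 bases, or 2.52 per 100 bases. Introns read in the same way numbered 4899 in 2612 tested genes and held 2.02 per 100 bases. At least 1 tract was present in all 8 Trmt2a introns and in 88.3% of those introns, and 3 or more were present in 2 of the 8 and in 60.3%. Per base the Trmt2a introns were thus richer in G-tracts as a set. Introns 1 and 4 held 10 and 9 of the 28 tracts, and each of the other introns read held 1 or 2. Per intron fewer of them held several, and their median length was 120.5 bases beside 153 over all introns read. The 4 introns of Trmt1 that could be read held 12 tracts, or 2.31 per 100 bases, and 3 of the 4 held 3 or more. A tract is a run of letters and not a binding site.

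The splicing table listed 5 events for Trmt2a: 2 retained introns, 1 skipped exon, 1 alternative 3′ splice site and 1 pair of mutually exclusive exons. These values chose the gene. Of the 14123 tested genes 0.092% had at least 5 listed events: 11 genes had 5, 2 had more, and 14 lay just outside with 4. Trmt2a was the only gene of the table with 4 of the 5 event types, and no gene had all 5. Events of the same gene can share exons and reads, so 5 events are not 5 independent changes. Read depth differed with listing: the median over genes of the mean count was 822 in genes with a listed event and 339 in genes without, and Trmt2a had 2998.

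Trmt1 had 2 listed events, 1 retained intron and 1 alternative 3′ splice site. Trmt2b and Trmt5 had 1 skipped exon each, and Trmt61a had 1 alternative 5′ splice site. Trmt6, Trmt10c, Trmt112 and Nsun2 had none. The 8 genes other than Trmt2a thus held 5 of the 1556 listed events, in 4 of the 8 genes, where 8.22% of all tested genes had a listed event. The median over genes of the mean count was 665 for these 8 genes and 378 for all tested genes. The 8 genes were also chosen with earlier results of these data known. The direction of the events was not analysed here.

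**Figure D2:**
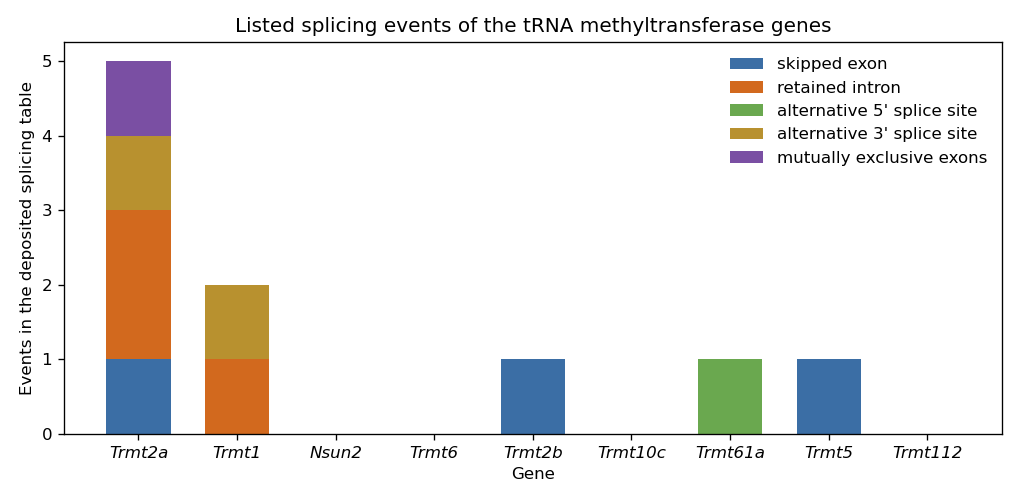
Number of events in the deposited splicing table for each of the 9 genes, stacked by event type. Trmt2a has 5 events of 4 types, Trmt1 has 2, Trmt2b, Trmt5 and Trmt61a have 1 each, and the other 4 genes have none.

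Trmt2a had counts of 2432 and 2988 in the controls and of 2964 and 3606 in the knockout. Scaled to library size these were 149 and 157 CPM in WT and 189 and 201 in the knockout, or 153 ± 5.91 and 195 ± 8.64 (mean ± SD, n = 2 each). Both Hnrnpf bKO libraries lay above both WT libraries. The log2 fold change was 0.35, which is 1.28-fold. This rise is part of how Trmt2a was chosen.

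Trmt1 (ENSMUSG00000001909, chr8:84686307-84699808, plus strand) rose in Hnrnpf bKO FOB cells and was the only one of the other 8 genes that passed the test. Its counts were 2450 and 2892 in the controls and 3196 and 3813 in the knockout, which is 151 ± 1.56 and 208 ± 6.35 CPM. Both knockout libraries lay above both controls. The log2 fold change was 0.47 (SE 0.05, 95% interval 0.35 to 0.58, edgeR adjusted p = 0.0002), or 1.38-fold with an interval from 1.28 to 1.49. It stayed below a 2-fold change, and 0.899% of tested genes were both called and changed by at least 2-fold. With limma-trend on log2(FPKM + 0.1), the adjusted p of Trmt1 was 0.0587, and with log2(FPKM + 1) it was 0.0604. A test of whether Trmt2a and Trmt1 changed by different amounts was not made.

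Across all tested genes, 6.97% were called, with 4.15% higher and 2.83% lower in Hnrnpf bKO. Among the 8 genes other than Trmt2a, 1 was called higher and 0 lower. At an unadjusted p under 0.05 in edgeR, which 11% of all tested genes passed as higher and 9.3% as lower, the counts among the 8 genes were also 1 and 0, and DESeq2 also called 1 higher and 0 lower. The median log2 fold change of the 8 genes was −0.02, beside 0.00 over all genes tested.

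Trmt2b, the mitochondrial paralog of Trmt2a, had counts of 663 and 770 in the controls and of 617 and 738 in the knockout. Its levels were 40.5 ± 0.0455 and 40.3 ± 1.30 CPM and the groups overlapped. The log2 fold change was −0.01 with a 95% interval from −0.18 to 0.17 (edgeR adjusted p = 0.973).

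Trmt10c, which methylates mitochondrial tRNA and is a subunit of mitochondrial RNase P, had counts of 638 and 702 in the controls and of 562 and 628 in the knockout. Both Hnrnpf bKO libraries lay below both WT libraries, at 35.9 and 35.1 against 39.0 and 36.9 CPM. The log2 fold change of −0.10 (95% interval −0.28 to 0.08) did not pass the test (edgeR adjusted p = 0.568).

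Trmt61a and Trmt6 form the enzyme that makes N1-methyladenosine in the T loop, with Trmt61a as the catalytic and Trmt6 as the non-catalytic subunit. Trmt61a had counts of 444 and 547 in the controls and of 444 and 471 in the knockout, and its log2 fold change was −0.04 (95% interval −0.24 to 0.17, edgeR adjusted p = 0.879). Trmt6 had counts of 837 and 846 in the controls and of 620 and 792 in the knockout. Scaled to library size, the WT libraries of Trmt6 stood at 51.2 and 44.5 CPM and the Hnrnpf bKO libraries at 39.6 and 44.2. The groups of Trmt6 thus did not overlap, but WT replicate 2 and Hnrnpf bKO replicate 2 were almost level. Its log2 fold change was −0.19 (95% interval −0.39 to 0.01, edgeR adjusted p = 0.278). It ranged from −0.084 without WT replicate 1 to −0.28 without WT replicate 2, with −0.11 without Hnrnpf bKO replicate 1 and −0.27 without Hnrnpf bKO replicate 2.

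Trmt5, which methylates the guanosine next to the anticodon, had counts of 196 and 243 in the controls and of 212 and 193 in the knockout. The Hnrnpf bKO libraries of Trmt5 stood above and below both WT libraries, at 13.5 and 10.8 CPM around 12.0 and 12.8. Its log2 fold change was −0.03 (95% interval −0.35 to 0.29, edgeR adjusted p = 0.935). Nsun2, a cytosine methyltransferase of tRNA and other RNAs, had counts of 1907 and 2278 in the controls and of 1808 and 2145 in the knockout. The groups of Nsun2 overlapped and its log2 fold change was −0.01, with the narrow 95% interval from −0.13 to 0.11 (edgeR adjusted p = 0.961).

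Trmt112, a small protein that activates several methyltransferases, had counts of 178 and 234 in the controls and of 187 and 199 in the knockout. Its groups overlapped and its log2 fold change was −0.01 (95% interval −0.32 to 0.30, edgeR adjusted p = 0.975). Trmt5 and Trmt112 had the fewest counts and the widest intervals of the 9 genes. Outside the 9 genes, 3 were listed as other partners or substrates of Trmt112, without those grouped as tRNA methyltransferases. Of these, Bud23, a methyltransferase of ribosomal RNA, had a log2 fold change of 0.27 (edgeR adjusted p = 0.0618). N6amt1, which methylates a translation release factor, stood at −0.25 (adjusted p = 0.266, edgeR) and Mettl5, a ribosomal RNA methyltransferase, at −0.24 (adjusted p = 0.435, edgeR). None of the 3 passed the test in edgeR or DESeq2, although 1 of them, Bud23, had an unadjusted p under 0.05.

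Libraries of WT and Hnrnpf bKO did not overlap for 3 of the 8 genes other than Trmt2a, 1 higher and 2 lower in the knockout, where 50.1% of all tested genes did not overlap.

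**Figure D3:**
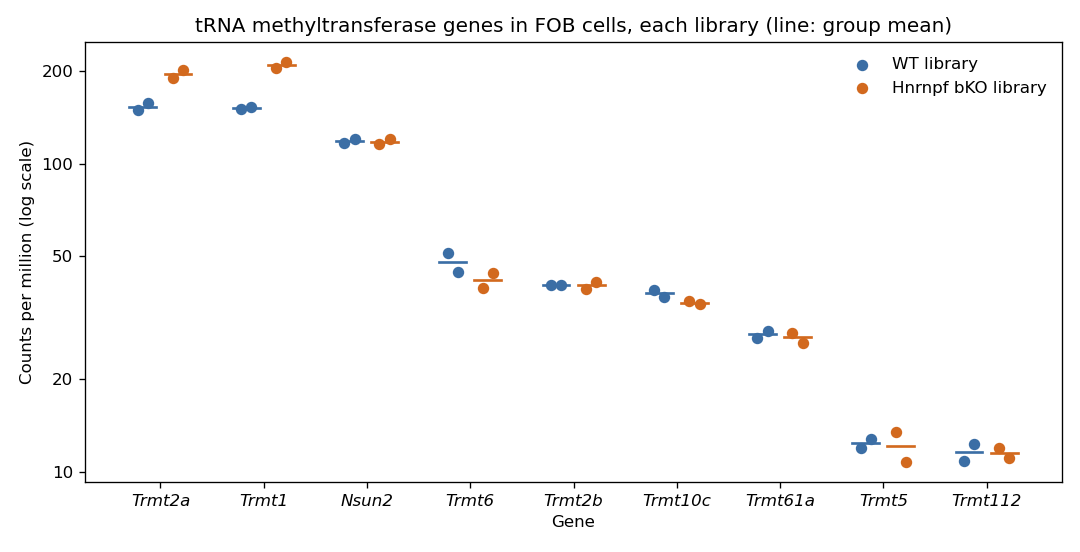
CPM of the 9 genes on a log scale, with a point for each library and a line at each group mean, blue for WT and orange for Hnrnpf bKO. Trmt2a and Trmt1 stand near 150 in WT and near 200 in Hnrnpf bKO, whereas the lines of the other 7 genes lie close together.

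Levels were compared between genes as FPKM, which divides counts by gene length and library size. Trmt2a was the highest of the 9 in WT, at 27.9 and 29.7 FPKM, and in Hnrnpf bKO, at 35.5 and 37.5. Trmt1 followed with 23.8 and 24.3 FPKM in WT and 32.3 and 33.5 in the knockout, and then Nsun2 with 20.7 ± 0.481 in WT and 20.4 ± 0.438 in Hnrnpf bKO (mean ± SD, n = 2 each). These 3 genes did not overlap each other in either genotype on the deposited lengths.

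A second step in level separated them from Trmt10c, at 12.99 and 12.37 FPKM in WT and 11.9 and 11.6 in the knockout. Trmt61a was next, at 11.2 and 11.9 FPKM in WT and 11.6 and 10.7 in the knockout, and it overlapped Trmt10c in Hnrnpf bKO but not in WT. Trmt112 had 8.82 and 10.04 FPKM in WT and 9.66 and 8.93 in the knockout. Trmt6 had 8.91 ± 0.842 in WT and 7.74 ± 0.566 in the knockout, and Trmt2b had 8.72 and 8.76 and then 8.46 and 8.78. In WT the libraries of Trmt6 overlapped those of both Trmt112 and Trmt2b, so the place of Trmt6 among them is not resolved. On the deposited lengths both Trmt112 libraries of WT lay above both Trmt2b libraries. Trmt5 was the lowest of the 9, at 5.60 and 6.01 FPKM in WT and 6.31 and 4.99 in the knockout.

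The deposited gene length is the union of all annotated exons, and this matters for a gene with many retained-intron transcripts. On the length of the reference transcript alone, Trmt2a stood at 64.8 ± 2.80 FPKM in WT and 82.0 ± 3.20 in the knockout, and Trmt1 at 59.0 ± 0.879 and 80.7 ± 2.03. The order of the first 3 genes was then unchanged in both genotypes, but the Hnrnpf bKO libraries of Trmt2a, at 79.8 and 84.3 FPKM, overlapped those of Trmt1, at 79.3 and 82.2. Trmt6 moved from the seventh to the fourth place in WT, at 16.96 ± 1.61. Trmt2b moved from place 8 to place 5 in WT, Trmt10c from 4 to 6 and Trmt61a from 5 to 8. The WT libraries of Trmt10c, at 12.99 and 12.37 FPKM, overlapped those of Trmt2b and of Trmt112. Those of Trmt61a, at 11.15 and 11.89, overlapped those of Trmt112, so neighbouring places from 5 to 8 are not resolved. The WT libraries of Trmt2b, at 12.96 and 13.02 FPKM, then lay above those of Trmt112, at 11.05 and 12.56. The order of Trmt112 and Trmt2b thus depends on the length used. A fold change within a gene does not depend on this choice.

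Trmt2a shares its locus with other genes. Ranbp1, a regulator of the Ran GTPase cycle in nuclear transport, starts on the opposite strand and overlaps Trmt2a by 54 bases. Its counts were 975 and 1159 in the controls and 1116 and 1340 in the knockout, with both knockout libraries above both controls, and its log2 fold change was 0.28 (SE 0.07, edgeR adjusted p = 0.0298). This call of Ranbp1 was lost with DESeq2 (adjusted p = 0.107) and with limma-trend (adjusted p from 0.103 to 0.183). It was also lost without WT replicate 1 (log2 fold change 0.26, adjusted p = 0.0803), without Hnrnpf bKO replicate 1 (0.31, adjusted p = 0.0629) and without Hnrnpf bKO replicate 2 (0.24, adjusted p = 0.154).

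The 150 bases between the annotated start of Ranbp1 and that of Trmt2a-203 are given as the stretch from which the pair runs outward. They lie at chr16:18248733-18248882 and are written along the plus strand, with 70.0% G or C and no capitals.
Ranbp1 to Trmt2a-203: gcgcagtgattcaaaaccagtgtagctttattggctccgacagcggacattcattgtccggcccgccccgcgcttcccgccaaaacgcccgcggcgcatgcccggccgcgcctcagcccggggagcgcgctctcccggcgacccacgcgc

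RefSeq places the starts of Trmt2a and Ranbp1 189 bases apart, so windows from 250 bases before to 50 bases after each start share 288 of their 300 bases. On the other side, Dgcr8, a subunit of the microRNA-processing complex, overlaps Trmt2a by 825 bases on the opposite strand. Dgcr8 had counts of 939 and 1120 in the controls and of 890 and 983 in the knockout, and its log2 fold change was −0.06 (edgeR adjusted p = 0.706). Gm49776, whose annotation spans all 6094 bases of Trmt2a, had 0 counts in every library. The strand setting of the counting is not given in the sources used here, so reads from overlapping genes on opposite strands cannot be told apart.

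Around Trmt1, Nacc1, a transcriptional regulator, overlaps it by 1596 bases and had a log2 fold change of −0.05 (edgeR adjusted p = 0.661). Nfix, a transcription factor gene 67 bases away, stood at −0.02 (edgeR adjusted p = 0.976). Lyl1, a blood-cell transcription factor gene 1640 bases away, fell from counts of 3318 and 4339 in the controls to 2562 and 2670 in the knockout, a log2 fold change of −0.47 (SE 0.07, edgeR adjusted p = 0.00111), with an adjusted p of 0.101 in limma-trend on log2(FPKM + 0.1). Trmt1 and Lyl1 thus moved in opposite directions, and Nacc1, which shares bases with Trmt1, did not pass the test.

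Neighbours of the other members did not pass the test. Around Trmt112, Prdx5 overlaps by 409 bases and had a log2 fold change of −0.04 (edgeR adjusted p = 0.835), and Esrra overlaps by 73 bases and had one of −0.23 (edgeR adjusted p = 0.0543). Esrra passed in edgeR without a filter on low counts (adjusted p = 0.0354) and with at least 10 counts in every library (adjusted p = 0.0394). Beside Nsun2, Tent4a stood at 0.31 (edgeR adjusted p = 0.145) and Srd5a1 at −0.25 (edgeR adjusted p = 0.827). The genes within 2 kb of Trmt2b, Trmt5 and Trmt6 were Nox1, Slc38a6 and Mcm8, with log2 fold changes of −0.06, 0.09 and 0.06. Gm22422, inside Trmt10c, and Gm17108 and A530095I07Rik, beside Nsun2, had at most 10 counts in any library and were not tested.

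**Figure D4:**
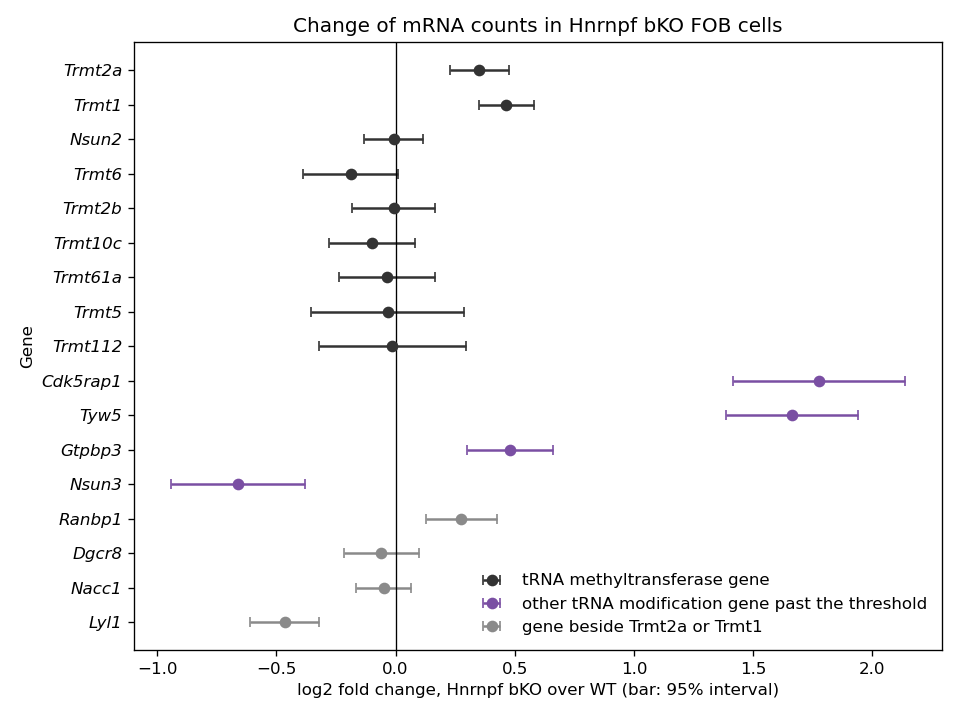
Log2 fold change of Hnrnpf bKO over WT with its 95% interval from edgeR for the 9 tRNA methyltransferase genes (black), the 4 other tRNA modification genes past the threshold (purple) and 4 genes beside Trmt2a or Trmt1 (grey). Trmt1 (0.47) lies right of 0, and the intervals of the 7 methyltransferase genes other than Trmt2a and Trmt1 include 0. Cdk5rap1 (1.78) and Tyw5 (1.66) lie farthest right. Trmt2a (0.35) was chosen for its rise, so its interval is a description and not a test.

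The wider tRNA modification machinery was read from a list of 82 further genes, of which 81 were tested. In Hnrnpf bKO FOB cells, Cdk5rap1, Tyw5 and Gtpbp3 were higher and Nsun3 was lower, and the rest of the tested genes did not pass the test. Called genes thus made up 3 higher and 1 lower of 81, where 4.15% and 2.83% of all tested genes were called. The median log2 fold change of the list was 0.02, beside 0.00 over all genes tested, with 45 positive and 36 negative values. The groups of libraries did not overlap for 21 genes that were higher and 19 that were lower, where 50.1% of all tested genes did not overlap.

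Cdk5rap1, which adds a methylthio group next to the anticodon of mitochondrial tRNA, had the largest change of the list. Its counts were 160 and 184 in the controls and 416 and 714 in the knockout, and the 2 knockout libraries differed widely at 26.5 and 39.9 CPM, yet both lay far above the WT libraries at 9.78 and 9.67. The log2 fold change was 1.78 (SE 0.17, edgeR adjusted p = 5.61e-05), and it ranged from 1.45 to 2.04 when 1 library was left out. Tyw5, a hydroxylase of wybutosine, the bulky base beside the anticodon of phenylalanine tRNA, had counts of 114 and 137 in the controls and of 344 and 411 in the knockout. Its log2 fold change was 1.66 (SE 0.13, edgeR adjusted p = 9.70e-06), with the libraries of each group close together.

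These were the only 2 genes of the list past 2-fold, and no member of the 9 passed it. Of the other wybutosine genes, Tyw1 stood at 0.04, Tyw3 at −0.15 and Lcmt2 at 0.02 on the log2 scale, and these 3 did not pass the test. Trmt5 provides the first methyl group of wybutosine and Trmt12 acts after it, at −0.03 and 0.04. Maip1 overlaps Tyw5 by 774 bases and had a log2 fold change of −0.23 (edgeR adjusted p = 0.467). It was looked up after the value of Tyw5 had been seen.

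Gtpbp3 and Nsun3 act on mitochondrial tRNA. Gtpbp3 takes part in making taurine-containing uridine at the wobble position and had counts of 636 and 846 in the controls and of 907 and 1050 in the knockout, a log2 fold change of 0.48 (SE 0.08, edgeR adjusted p = 0.00435). Its partner Mto1 stood at −0.19 (edgeR adjusted p = 0.375) and Trmu, which thiolates the same uridine, at −0.15 (edgeR adjusted p = 0.498). Nsun3 methylates the wobble cytosine of mitochondrial methionine tRNA. It fell from counts of 286 and 353 in the controls to 193 and 189 in the knockout, a log2 fold change of −0.66 (SE 0.13, edgeR adjusted p = 0.00863). Alkbh1, which acts on that cytosine after Nsun3, stood at 0.01 (edgeR adjusted p = 0.981). With limma-trend on log2(FPKM + 0.1), Tyw5 alone of the 4 called genes passed, and the adjusted p was 0.0634 for Cdk5rap1, 0.103 for Gtpbp3 and 0.140 for Nsun3. Plvap overlaps Gtpbp3 by 1819 bases and had 8 to 34 counts per library.

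By role, Nsun3 was the only gene called among 26 tested methyltransferases and partner subunits, whose median log2 fold change was 0.00. Mettl1 and Wdr4, which together make 7-methylguanosine, stood at 0.13 and 0.03. None of the 11 pseudouridine synthases was called in edgeR or DESeq2, and 1 of them had an unadjusted p under 0.05, on the lower side. Gtpbp3 was the only gene called among the 14 wobble uridine and thiolation genes. Cdk5rap1 and Tyw5 were called among the 13 genes that act on the base next to the anticodon, and the other 11 ranged from −0.15 to 0.10.

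The 12 genes of queuosine, deamination, dihydrouridine, acetylation and guanylation held no call in edgeR or DESeq2, with 2 higher and 2 lower at an unadjusted p under 0.05, where the shares of all tested genes were 11% and 9.3%. Dus3l, a dihydrouridine synthase, was the most abundant gene of the list by FPKM, with 65.03 and 69.68 in WT and 74.95 and 76.17 in the knockout. Its log2 fold change was 0.18 (edgeR adjusted p = 0.0688), and it passed when no filter was applied (adjusted p = 0.0402). The 2 demethylases Alkbh1 and Alkbh3 were not called in edgeR or DESeq2 and had no unadjusted p under 0.05. Trmt9b had 0 counts in every library and was not tested, and a count of 0 does not show that the gene was silent.

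**Figure D5:**
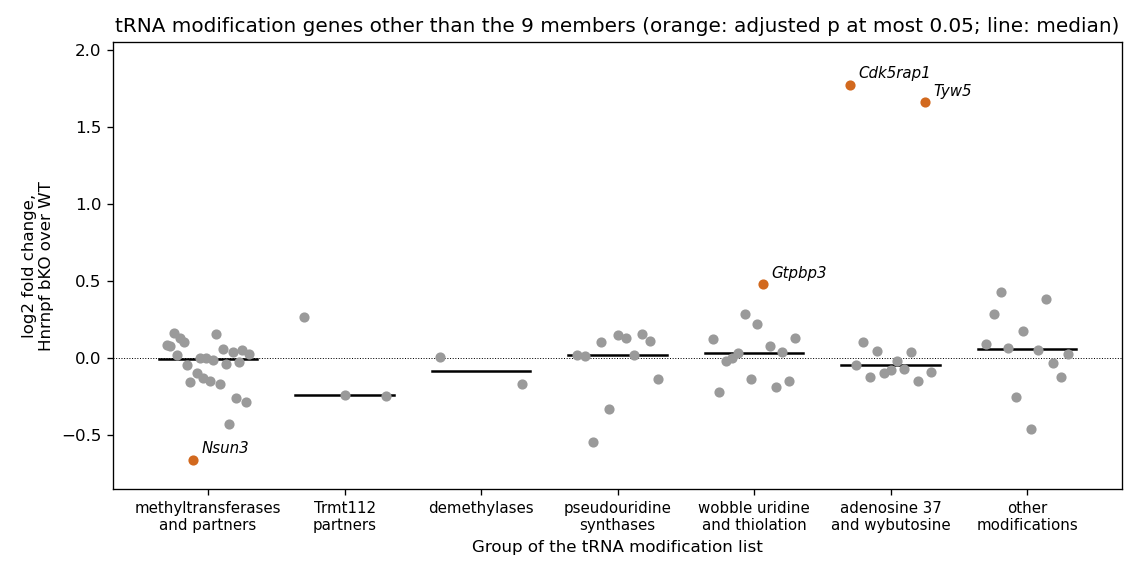
Log2 fold change of Hnrnpf bKO over WT for the 81 tested genes of the tRNA modification list, 1 point per gene in 7 groups by role, with a line at the median of each group and orange points for genes with an adjusted p of at most 0.05. Cdk5rap1, Tyw5 and Gtpbp3 lie above 0 and Nsun3 below, and most other points lie within 0.3 of 0.

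Listed splicing events were present for 7 of these 81 genes, where 8.22% of all tested genes had a listed event. Tyw5 had 2, and Trmt13, Wdr4, Alkbh8, Pus10, Trub2 and Osgepl1 had 1 each. Tyw5 was thus the only one of the 4 called list genes with a listed event, and Cdk5rap1, which changed more, had none.

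The genes whose log2 CPM followed that of Trmt2a most closely over the 4 libraries were Rtp4, Aup1, Ighv6-6, Zmat1 and Gm20008, with Euclidean distances of 0.03 to 0.04 after each was centred on its own mean. Their log2 fold changes lay between 0.34 and 0.38 by this choice, so they are given as a description with no test.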

How the data were processed

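RNA of sorted FOB cells was measured in 2 WT and 2 Hnrnpf bKO libraries, grouped by their labels. Poly(A) RNA was sequenced in paired-end reads. The submitters' processing notes name Cutadapt 1.9.1, HISAT2 2.0.1 and HTSeq 0.6.1, with GRCm38 as the build. The deposited counts are whole numbers per gene without normalization. The deposited FPKM values are the authors' scaling of the counts by exonic gene size and library total. The authors' splicing table, made with rMATS, lists significant events with FDR and inclusion level difference columns. These columns hold the authors' own comparison and were not used, and only the other columns (gene and event type) were read.

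Counts were fitted with edgeR 4.0.16 in R 4.3.3 (TMM, filterByExpr, quasi-likelihood F test, Benjamini-Hochberg adjustment over 14123 genes) with a threshold of 0.05 on the adjusted p. The study's methods name DESeq2, so DESeq2 1.42.0 was run as an alternative, as were RLE and upper-quartile factors, other filters, limma 3.58.1 on log2(FPKM + 0.1) and log2(FPKM + 1), the replicate block, each library left out and an added 2-fold threshold. The length of the reference transcript was added after seeing the data. Library totals lay between 15698567 and 18908963 counts. The biological coefficient of variation was 5.90%, and replicate counts did not agree within sampling noise (chi-square per degree of freedom 4.13 in WT and 3.77 in Hnrnpf bKO). An exact permutation test of 2 against 2 cannot go below 0.333. The fit was tested on simulated data with known changes.

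Named genes were the 9 members, Hnrnpf, called genes of the tRNA modification list, genes overlapping or within 2 kb of a member, the 5 tested genes averaging 100 or more counts nearest to Trmt2a in centred log2 CPM, and the highest and lowest list gene by FPKM. Other genes are named as partners or examples, chosen after their values were seen. The members and lists were chosen with earlier results of these data known. Coordinates and transcript sequences are from GENCODE M21, which shares coordinates for 99.4% of the 55141 IDs in common with the deposited table. Some items are not reported here.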

Additional observations from a re-analysis of the deposited data

How the results depend on the processing

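The log2 fold change of Trmt2a ranged from 0.33 to 0.35 over 9 alternatives and from 0.31 to 0.40 with 1 library left out, and that of Trmt1 from 0.44 to 0.47 and from 0.43 to 0.50. Over all genes, the calls numbered 1470 without a filter on low counts, 1042 with at least 10 counts in every library, 989 with RLE and 971 with upper-quartile factors, 617 with DESeq2, 612 with the replicate block, 45 with limma-trend on log2(FPKM + 0.1), 41 on log2(FPKM + 1), 1 on log2(FPKM + 0.1) without a filter, 127 at a fold change of at least 2, and 679 to 861 with 1 library left out, beside 985. Of the 8 genes other than Trmt2a, 0 were called in each of the 3 limma settings and 0 at a fold change of at least 2, beside 1, and 1 to 1 with 1 library left out. Calls in the tRNA modification list numbered 7 (6 higher and 1 lower) without a filter on low counts, 1 in both filtered limma settings, 0 in the unfiltered one, 2 at a fold change of at least 2, and 4 to 6 with 1 library left out, beside 4. The cause of the lower counts with limma was not tested. Trmt1 (adjusted p = 0.158) and Hnrnpf (0.0509) did not pass in the unfiltered limma setting.

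The replicate numbers of the labels are shared by WT and Hnrnpf bKO. Deviations of same-numbered libraries correlated at −0.0805 over 9875 genes, so no shared deviation was seen. This cannot settle whether the libraries were paired by design, which the labels do not say. With the replicate block, 1 of the 8 genes and 4 of the list were called, and the adjusted p was 0.0721 for Ranbp1. In a fit that leaves out 1 library, the lone library is assumed to vary like the other group. The sign then changed for genes near 0, with log2 fold changes from −0.041 to 0.026 for Trmt2b, −0.20 to 0.13 for Trmt5, −0.088 to 0.018 for Trmt61a, −0.095 to 0.084 for Trmt112, −0.035 to 0.020 for Nsun2, −0.090 to 0.061 for Nfix, −0.35 to 0.33 for Nox1, −0.15 to 0.29 for Slc38a6, −0.078 to 0.20 for Mcm8 and −0.077 to 0.0054 for Prdx5. Depth limited Trmt5 and Trmt112, with standard errors of 0.15 and 0.14 beside 0.06 for Nsun2. RLE and upper-quartile factors moved the median of all genes from −0.0023 to −0.0032 and −0.0035.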
